A study of Mus musculus with 8 samples.

Results

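Labelled neurons of the ventromedial nucleus of the hypothalamus (VMH) were compared with labelled neurons of the arcuate nucleus (Arc), using 5 of the 8 arrays of the series: 3 of VMH and 2 of Arc. All mice were 2-month-old females carrying Nkx2-1-CreERT2 and a ROSA-loxSTOPlox-ZsGreen1 reporter, and all had received tamoxifen. Cells in which the Nkx2-1 promoter drove the recombinase were thereby marked in green. The neurons chosen were thus ones in which that driver was active. Markers of other cell types also gave signal in both groups, as given below. Green neurons were collected with a laser microdissection microscope and pooled, and the cDNA made from each sample was labelled and hybridised to its own 1-colour array. Nothing in the labels says which mouse a pool came from, so p-values reflect only how much these pools varied, which may be technical, and would be too small if pools of a nucleus came from 1 mouse. The 3 arrays of the dorsomedial nucleus (DMH) from the same cross enter only as further levels and in the estimate of the spread.

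Both nuclei lie in the mediobasal hypothalamus and take part in the control of energy balance. Arc holds the melanocortin neurons: one population makes proopiomelanocortin, which restrains feeding, and another makes Agouti-related peptide, neuropeptide Y and GABA, which promote it. Arc also holds kisspeptin, growth-hormone-releasing hormone and dopamine neurons that regulate the pituitary. VMH neurons are mostly glutamatergic, depend on the nuclear receptor Nr5a1 (SF-1) for their formation, and many release the peptide PACAP, encoded by Adcyap1.

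The arrays read transcripts with probes of 60 bases. Those of 3 peptide precursors are shown because they lie in coding sequence and hold pairs of basic residues, the kind of site at which prohormone convertases cut. Capitals mark in-frame pairs of codons for the basic residues lysine and arginine and, in Pomc, the stop codon. Each line is a probe on the array, with its coordinates in mouse build mm9 in the sentences that follow.
Npy: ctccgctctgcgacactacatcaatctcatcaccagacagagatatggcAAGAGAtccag
Pomc: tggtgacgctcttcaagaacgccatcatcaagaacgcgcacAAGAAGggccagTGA
Cartpt: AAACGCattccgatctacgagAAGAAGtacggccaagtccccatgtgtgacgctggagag
The Npy probe (chr6:49773743-49777505, on both sides of an intron) reaches the basic pair that follows the amidated end of neuropeptide Y. Of the 60 bases of the Pomc probe (chr12:3960413-3960472) the first 56 are shown, which code for the end of beta-endorphin. The Cartpt probe (chr13:100668967-100669956) opens with the basic pair before the longer CART peptide and holds the pair before the shorter one. For comparison, the probes of 2 genes that were higher in VMH, the guidance ligand Slit3 (chr11:35521559-35521618) and the G protein subunit Gng13 (chr17:25855911-25855970), also lie in coding sequence.
Slit3: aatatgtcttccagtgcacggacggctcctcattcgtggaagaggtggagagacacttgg
Gng13: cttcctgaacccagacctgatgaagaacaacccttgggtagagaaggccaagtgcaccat

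Of the 55681 probes, 72.4% to 76% per array gave a signal well above background, and the number of arrays limited the precision. All signals below are levels on the log2 scale after subtraction of the array's 75th percentile, and a difference is the VMH mean minus the Arc mean on that scale, given with its standard error (SE). Levels of different genes come from different probes and are not compared. A gene was kept where its probe was well above background on all arrays of VMH or all arrays of Arc, so a gene kept through the brighter nucleus only had to differ. Where the dimmer nucleus had arrays not well above background, a bound ("at least N-fold") is printed: such an array was set to the dimmest of its own detected probes, or to the measured signal where that was higher. The difference, SE and p-value of such a gene still use the dim signals as measured. Correlations over genes were 0.962 to 0.966 between VMH arrays, 0.944 between the Arc arrays and 0.922 to 0.935 between nuclei.

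Tests were made on 26646 genes, of which 208 (0.781%) passed as higher and 99 (0.372%) as lower in VMH, 307 (1.15%) in either direction (limma, Benjamini-Hochberg adjusted p under 0.05). At an unadjusted p under 0.05 there were 1947 higher and 1954 lower. Leaving out VMH replicate 1, 2 or 3 reduced the higher calls to 73, 88 and 53, and leaving out Arc replicate 1 or DMH replicate 3 to 133 and 132. The lower calls became 49 without VMH replicate 1, 66 without VMH replicate 2, 46 without VMH replicate 3, 51 without Arc replicate 1, 52 without Arc replicate 2 and 61 without DMH replicate 3. Without any DMH array 73 genes were higher and 37 lower. With the replicate number as a block, 64 were higher and 47 lower. In all, 36 of the 307 calls held under every alternative in which they could be tested, and 63 held when each of the 8 arrays was left out in turn. The 36 include Fezf1, Cbln1, Nr2f2, Adcyap1, Pomc, Agrp, Gad2, Gal, Ghrh and Tbx3. Of the genes described below, Fam19a1, Qrfpr, Gda, Slit2, Slit3, Slc17a6, Nr2f1, Sst, Kiss1, Bsx, Kcna1, Kcnh3, Htr2c, Htr7, Nmbr, Gpr39, Gng13, Camk1d, Dkk3, Rab3b, Crabp1, Rbp4, Asb4, Col2a1, Alox12, Trim67, AW549542 and C130093G08Rik were also called with each array left out. The other called list members and leading genes below lost their call without at least 1 array, in most cases an Arc or a VMH array, with adjusted p-values of at most 0.185.

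**Figure D1:**
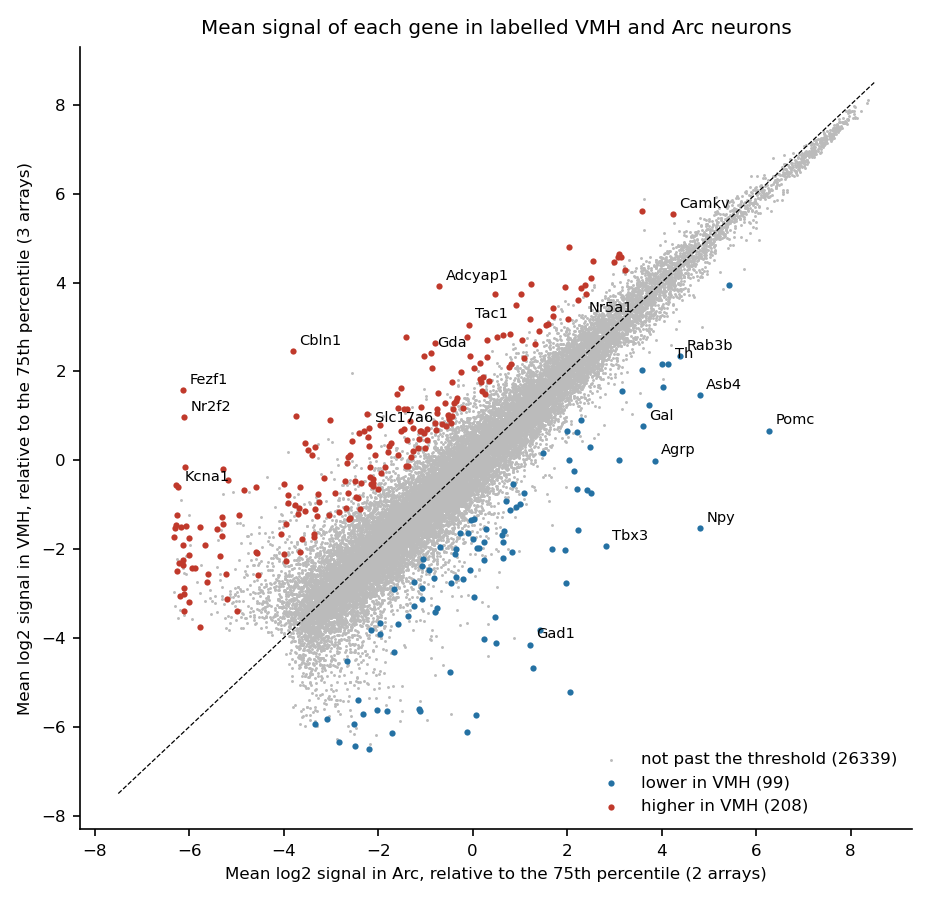
Mean log2 signal of each tested gene in VMH (vertical axis, 3 arrays) against Arc (horizontal axis, 2 arrays), after subtracting the array's 75th percentile; the dashed line marks equal signal. The 208 genes higher in VMH lie above the line and the 99 lower genes below it, and many called genes have levels near -6 in the dimmer nucleus, where probes were not well above background.

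The calls were not limited to the few largest differences. Of the higher calls, 90 had a difference of 1 to 2, 61 of 2 to 3, 35 of 3 to 4 and 22 of 4 or more. Of the lower calls, 35, 31, 16 and 17 fell into the same ranges. The dimmer nucleus was well above background on all its arrays for 148 of the 208 higher and 71 of the 99 lower genes. The median difference over all tested genes was -0.03, with quartiles of -0.34 and 0.29, and the 95% interval lay within 1 either way for 11546 genes. A further 2398 genes differed by over 1 in size without passing the test.

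The labels were set against marker genes, which were chosen with earlier results of these data known. Fezf1, a zinc finger transcription factor of the VMH, read 1.36, 1.63 and 1.76 in VMH replicates 1 to 3 and -6.16 and -6.09 in Arc replicates 1 and 2. VMH exceeded Arc at least 48.2-fold (difference 7.71, SE 0.24, adjusted p = 2.99e-05) and was not well above background in Arc. Cbln1, which encodes the synaptic organiser cerebellin 1, read 2.57, 2.24 and 2.54 in VMH and -3.51 and -4.11 in Arc, at least 75.2-fold higher (adjusted p = 0.000511). In both genes all VMH arrays stood far above both Arc arrays.

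Adcyap1, the PACAP precursor, read 3.79, 4.40 and 3.55 in VMH and -0.49 and -0.93 in Arc, 24.6-fold higher (difference 4.62, SE 0.35, adjusted p = 0.00225). Gda, the purine enzyme guanine deaminase, read 2.46, 2.34 and 2.42 in VMH against -0.40 and -1.35 (9.72-fold, adjusted p = 0.00561). Tac1, the substance P precursor, read 3.37, 2.98 and 2.81 against -0.61 and 0.44 (8.81-fold, adjusted p = 0.0172). The Tac1 groups did not overlap, but its adjusted p rose to as much as 0.0687 when Arc replicate 1 was left out. Of 24 measured VMH marker genes, 12 were higher and none lower, with a median difference of 2.06. The others past the threshold were Fam19a1, Qrfpr, Slit3, Slc17a6, Nptx2, Rprm and Sox14. Nptx2 and Slc17a6 did not mark VMH alone. Their DMH means were 4.80 and 0.30, against VMH means of 4.81 and 0.73. For Fam19a1, Qrfpr, Slit3, Rprm and Sox14 the VMH mean exceeded the DMH mean by 2.28, 5.34, 2.32, 2.46 and 2.32. Against Arc, the values were as follows. Fam19a1 had a difference of 5.08, which became 6.14 without Arc replicate 1 and 4.03 without Arc replicate 2. Sox14 also stands in the Arc list, and fell short of the threshold in 7 of the 8 fits that leave out an array (adjusted p up to 0.169). Among genes well above background on all 5 arrays, 8 VMH markers were higher. The lists and markers were chosen with earlier results of these data known, and the counts describe them only.

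Nr5a1, the nuclear receptor that defines VMH neurons, did not pass the test. It read 3.25, 3.00 and 3.33 in VMH and 2.44 and 2.21 in Arc, with a DMH mean of 1.89. The difference was 0.87 (SE 0.21, 95% interval 0.39 to 1.35, adjusted p = 0.116). The arrays of the 2 nuclei did not overlap, which held for 35.8% of all tested genes. Nkx2-1, whose driver marked the cells, read 1.09, 1.19 and 1.07 in VMH and 0.34 and 0.06 in Arc (difference 0.92, SE 0.20, adjusted p = 0.0853). Esr1, the oestrogen receptor of the ventrolateral VMH, which Arc neurons also make, differed by -0.72 (SE 0.86), within the spread.

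**Figure D2:**
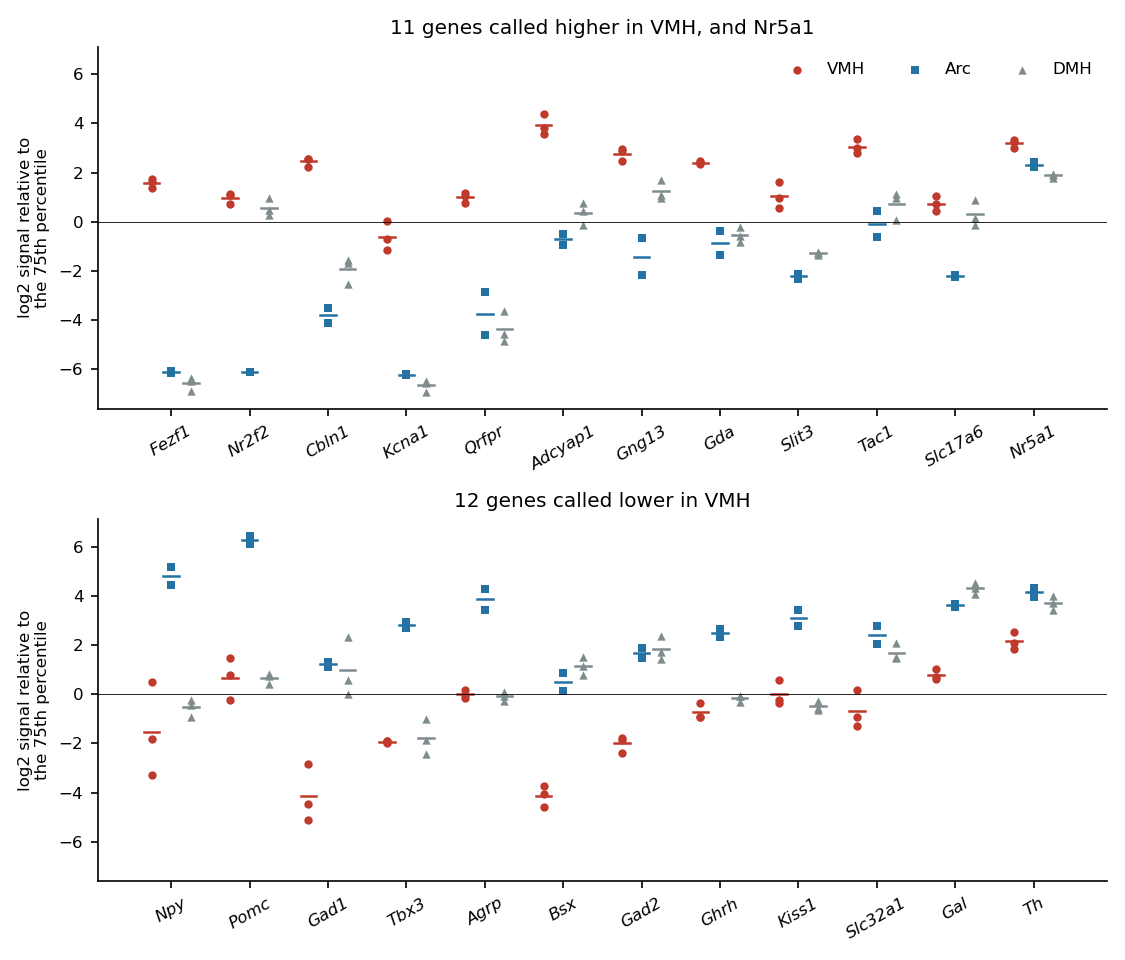
Log2 signal of 24 genes on every array, relative to the 75th percentile, with circles for VMH, squares for Arc and triangles for DMH and a bar at each mean. Among the upper genes VMH exceeds Arc on every array, by the least for Nr5a1, and among the lower genes both Arc arrays exceed all VMH arrays.

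The feeding peptides of Arc showed the reverse pattern. Pomc read 6.44 and 6.11 in Arc and 1.47, -0.23 and 0.77 in VMH, 48.7-fold lower in VMH (difference -5.61, SE 0.45, adjusted p = 0.00252). Npy read 5.19 and 4.45 in Arc and -3.29, -1.82 and 0.51 in VMH, 81.8-fold lower (difference -6.35, SE 0.93, adjusted p = 0.0244). The VMH arrays spread widely for Npy: within the slide row that held VMH replicate 3 the difference was -3.94, and within the other row it was -7.75. The difference was -5.48 without VMH replicate 1 and -7.38 without VMH replicate 3, and its adjusted p was 0.104 without Arc replicate 1. Agrp read 4.28 and 3.42 in Arc and -0.02, -0.17 and 0.17 in VMH (14.5-fold lower, adjusted p = 0.00205), with VMH close to the DMH mean of -0.09. Because whole pools were measured, fewer cells of a type and less RNA per cell cannot be told apart.

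Further peptide precursors, among them those of neuroendocrine Arc neurons, were lower in VMH as well. Ghrh, growth-hormone-releasing hormone, read 2.34 and 2.66 in Arc and -0.92, -0.93 and -0.37 in VMH (9.46-fold lower, adjusted p = 0.00225). Kiss1, the kisspeptin precursor, was 8.56-fold lower (adjusted p = 0.00998) and Tac2, the neurokinin B precursor of the same neurons, 15.9-fold lower (adjusted p = 0.0285, rising to 0.117 without Arc replicate 2). Gal (galanin) was 7.15-fold lower and Sst (somatostatin) 5.2-fold lower, with adjusted p of 0.00252 and 0.00998. Cartpt was 5.59-fold lower (adjusted p = 0.0358, 0.134 without Arc replicate 1). For Gal the DMH mean was 4.30 and the Arc mean 3.61. Of 29 measured Arc markers 16 were lower and 2, Htr2c and Sox14, higher, with a median of -2.70; 14 were lower among genes well above background on all 5 arrays.

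Of 40 measured neuropeptide precursors, 9 were lower and 3 higher in VMH. The higher ones were Adcyap1, Tac1 and Cck, the cholecystokinin precursor. Cck read -1.71, -1.31 and -2.07 in VMH, was not well above background in Arc (at least 4.97-fold, adjusted p = 0.0199), and had a DMH mean of 3.36, far above both. Its difference of 3.62 became 2.67 without Arc replicate 1 and 4.57 without Arc replicate 2. Pdyn (prodynorphin) differed by -0.08 (SE 0.21) between VMH and Arc. Oxt, Trh and Pmch had differences of -4.01, -2.70 and -1.41 that did not pass the test, with SEs of 0.86, 0.73 and 1.60. None of 18 measured peptide-processing and granin genes passed, Cpe (carboxypeptidase E) differing by -0.06 (SE 0.20).

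Genes of GABA neurons included 6 that were lower in VMH. Gad1, an enzyme of GABA synthesis, read 1.31 and 1.11 in Arc and -5.13, -2.84 and -4.46 in VMH, at least 32.3-fold lower, as it was well above background on 1 of 3 VMH arrays (adjusted p = 0.026, 0.101 without Arc replicate 1; difference -5.36, or -6.01 without VMH replicate 2). Gad2, the other such enzyme, read 1.89 and 1.47 in Arc and -1.76, -1.87 and -2.37 in VMH, 12.8-fold lower (adjusted p = 0.00421). Slc32a1, the vesicular GABA transporter, was 8.52-fold lower (adjusted p = 0.0253, 0.117 without Arc replicate 2). Dlx1 and Dlx2, homeobox factors of GABA neurons, had differences of -2.89 and -1.95. In all, 6 of 11 measured genes of this list were lower and none higher, with a median of -2.58.

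The vesicular glutamate transporter Slc17a6 went the other way, at 1.05, 0.72 and 0.43 in VMH and -2.15 and -2.23 in Arc (7.59-fold higher, adjusted p = 0.0105). Both Arc arrays lay below all VMH arrays. Of 8 measured glutamatergic genes it was the only higher call, and Tcf7l2, a Wnt effector in the same list, was 4.61-fold lower (adjusted p = 0.0212, 0.0932 without Arc replicate 2). Of the dopamine and monoamine genes, Th (tyrosine hydroxylase) was 3.96-fold lower in VMH, at 1.86, 2.54 and 2.08 against 4.34 and 3.95 (adjusted p = 0.023, 0.102 without Arc replicate 1). Gch1, which makes the cofactor of tyrosine hydroxylase, was at least 4.05-fold lower and not well above background in VMH (adjusted p = 0.0174). Its difference of -4.29 became -3.45 without Arc replicate 1 and -5.14 without Arc replicate 2. The dopamine transporter Slc6a3 differed by -2.06 (SE 0.56, adjusted p = 0.159). In all, 2 of 14 genes of the list were lower and none higher. The DMH mean of Th was 3.70.

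**Figure D3:**
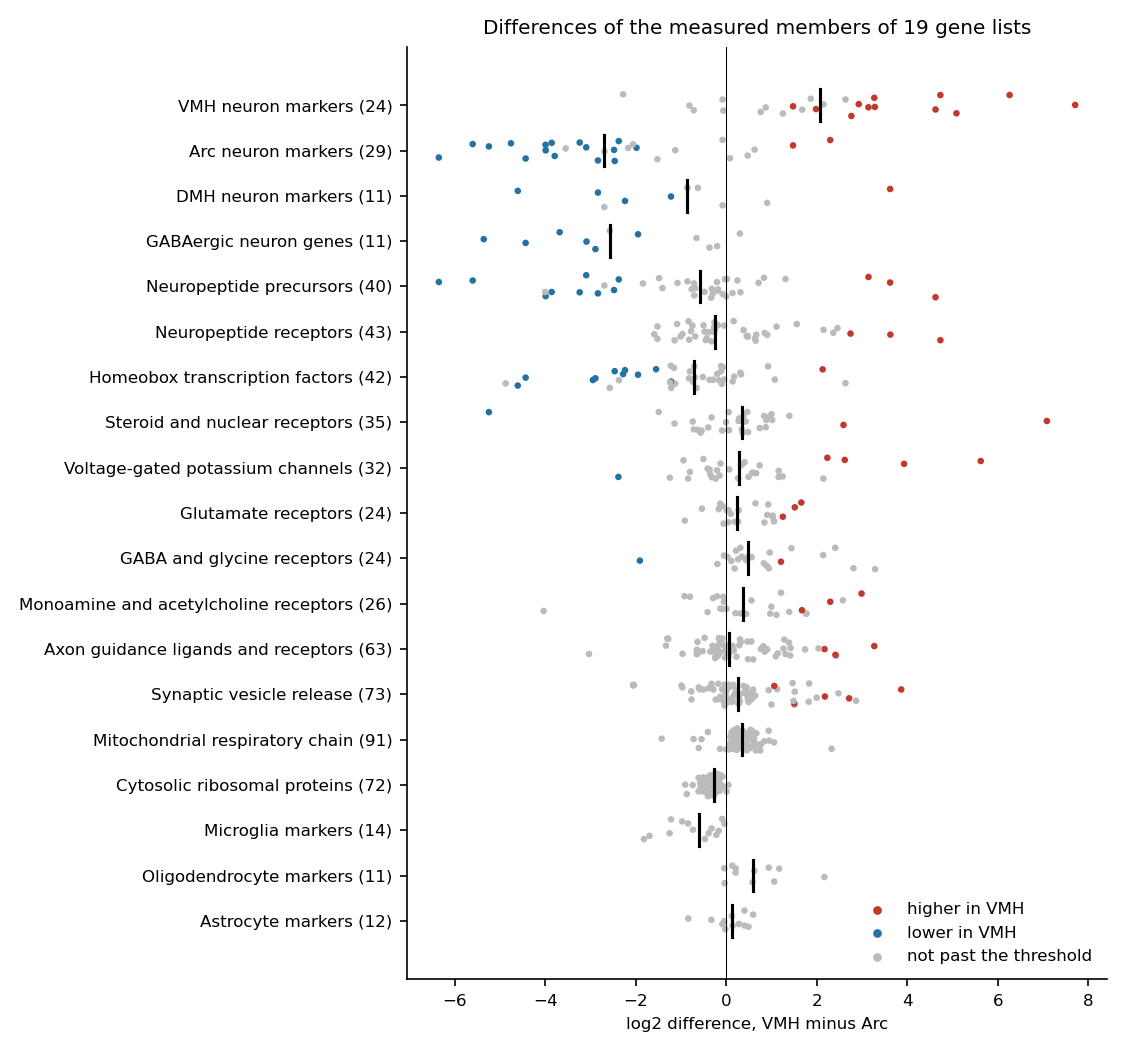
Differences (VMH minus Arc, log2) of the measured members of 19 gene lists, 1 point per gene, with the number of members after each name and a black bar at the median. Points past the threshold are red where higher and blue where lower in VMH; calls lie only on the right for VMH markers and only on the left for GABAergic genes, while Arc markers (2 higher, 16 lower), homeobox factors (1 higher, 10 lower) and voltage-gated potassium channels (4 higher, 1 lower) have calls on both sides.

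Transcription factors differed in both directions. Nr2f2 (COUP-TFII), an orphan nuclear receptor, was not well above background in Arc, at 1.12, 0.71 and 1.11 in VMH and -6.11 on both Arc arrays, at least 31.7-fold higher (adjusted p = 6.42e-05). As for Fezf1, this p-value uses Arc values below the dimmest detected probes. Nr2f2 did not mark VMH alone, since DMH had a mean of 0.56. Its paralog Nr2f1 read 1.22, 1.18 and 1.04 against -1.18 and -1.70 (6.01-fold higher, adjusted p = 0.0032). Nr5a2, the paralog of Nr5a1, went the opposite way: at 1.31 and 1.52 in Arc and -3.06, -5.71 and -2.73 in VMH, it was at least 26.3-fold lower (adjusted p = 0.0431, 0.146 without Arc replicate 2; difference -5.25, or -4.31 without VMH replicate 2). Of 35 measured nuclear receptors, these 3 were the only calls.

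Tbx3, a T-box factor of Arc neurons, read 2.95 and 2.69 in Arc and -2.01, -1.90 and -1.91 in VMH, 27.1-fold lower (adjusted p = 0.00252). Of 42 measured homeobox factors, 10 were lower in VMH and 1, Tshz2, was higher (difference 2.13). The lower ones included Bsx, Dlx1, Dlx2, Hmx2, Hmx3, Otp, Prox1 and Six6. Bsx, needed for Agrp and Npy expression, read 0.12 and 0.86 in Arc and was well above background on 1 VMH array (at least 22.9-fold lower, adjusted p = 0.00238). Otp, which specifies neuroendocrine neurons, was 5.53-fold lower (adjusted p = 0.0117). Well above background on all 5 arrays, 7 homeobox factors were lower. Among other factors Prdm12 was at least 16-fold lower and Insm1 at least 2.62-fold lower, while Lmo4 was 4.03-fold and Sox14 2.78-fold higher. Insm1 was not well above background in VMH. Without Arc replicates 1 and 2 in turn, the Prdm12 difference became -3.14 and -4.85.

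The peptide receptor genes that passed the test were all higher in VMH. Qrfpr, the receptor of the peptide QRFP, read 1.06, 0.74 and 1.17 in VMH and -4.61 and -2.86 in Arc (at least 21.2-fold, adjusted p = 0.0106). Nmbr, the neuromedin B receptor, was 12.3-fold higher and Npffr1, a receptor of RF-amide peptides, 6.7-fold higher (adjusted p = 0.00998 and 0.0377). Without Arc replicates 1 and 2 in turn, the Qrfpr difference of 4.73 became 3.86 and 5.60. These were 3 of 43 measured neuropeptide receptors, and none was lower. Ghsr, the ghrelin receptor, was not well above background in VMH, with a difference of -1.52 (SE 0.56, adjusted p = 0.27).

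Among monoamine and acetylcholine receptors 3 of 26 were higher and none lower, all of them serotonin receptors. Htr2c read 1.29, 1.19 and 1.15 in VMH and -0.84 and -1.33 in Arc (4.91-fold, adjusted p = 0.00892), although it was listed as an Arc marker. Htr7 was 7.93-fold and Htr2a 3.18-fold higher (adjusted p = 0.0112 and 0.0355). The receptor Gpr39 was not well above background in Arc and was at least 6.91-fold higher in VMH. Lepr, the leptin receptor, read -1.88, -3.35 and -2.99 in VMH and -0.51 and -0.63 in Arc, a difference of -2.17 that did not pass (SE 0.81, adjusted p = 0.281). None of 38 genes of leptin, insulin and energy sensing passed.

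Most ion channel calls were higher in VMH. Kcna1, a voltage-gated potassium channel of axons, read -0.70, -1.17 and 0.05 in VMH and was not well above background in Arc (at least 10.6-fold, adjusted p = 0.00101). Kcnq3, which forms the M-current, was 15.2-fold higher, Kcnh3 4.7-fold and Kcns2 at least 6.13-fold. Kcna5 went the other way, 5.23-fold lower (adjusted p = 0.0361), so 4 of 32 voltage-gated potassium channels were higher and 1 lower. The sodium channel Scn9a was 4.12-fold lower and the calcium channel subunit Cacng5 5.6-fold lower. Of 31 other potassium channel genes, Kcnmb4 (4.42-fold) and Kcnk13 (3.75-fold) were higher and none lower.

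Of 24 measured glutamate receptor genes 3 were higher and none lower: Gria3 (3.15-fold), Grm5 (2.85-fold) and Grin3a (2.38-fold). Grm5 read 2.83, 2.95 and 2.95 in VMH and 1.27 and 1.53 in Arc (adjusted p = 0.0199). Of 24 GABA and glycine receptor genes, Gabrb1 was 2.31-fold higher and Gabre 3.76-fold lower (adjusted p = 0.0496 and 0.0333). These 5 calls are close to the threshold: without 1 array the adjusted p rose to as much as 0.0908 for Grm5, 0.12 for Gria3, 0.135 for Grin3a and Gabre and 0.185 for Gabrb1.

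Genes of axon guidance and synapses were also called. Slit2 and Slit3, ligands of Robo receptors, were 5.31-fold and 9.64-fold higher in VMH (adjusted p = 0.00322 and 0.00553). Slit3 read 1.63, 0.54 and 0.96 in VMH against -2.12 and -2.33, with the Arc arrays below all VMH arrays. With Sema3f (4.5-fold) these made 3 of 63 guidance genes higher and none lower. The cadherin Cdh7 was at least 4.27-fold higher, the only call among 58 cadherins, protocadherins and contactins, a share near the 0.781% of all genes. Among 40 cerebellins and synaptic organisers, Cbln1, Nptx2 (6.78-fold) and the postsynaptic adhesion protein Nlgn1 (2.99-fold) were higher and none lower. Nptx2 was lost in 7 of the 8 fits with an array left out (adjusted p up to 0.125), and its difference of 2.76 became 3.56 without Arc replicate 1 and 1.96 without Arc replicate 2.

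Of 73 genes of synaptic vesicle release, 5 were higher and 1 lower. Sv2b, a vesicle protein, was at least 5.99-fold higher, and Syt1, the calcium sensor of fast release, read 3.17, 3.01 and 2.95 in VMH against 1.56 and 1.53 (2.83-fold, adjusted p = 0.0133). Vamp1, Syt9 and Napb were the other higher genes. Without Arc replicates 1 and 2 in turn, the differences of Sv2b (3.86) became 2.91 and 4.82 and those of Vamp1 (2.71) 3.68 and 1.74. Rab3b, a vesicle GTPase, read 4.41 and 4.38 in Arc and 2.33, 2.39 and 2.30 in VMH (4.16-fold lower, adjusted p = 0.0084). Within each nucleus the arrays lay close together for Rab3b, and its DMH mean was 3.91.

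In signalling, Gng13 read 2.88, 2.96 and 2.46 in VMH and -0.68 and -2.15 in Arc (18.2-fold higher, adjusted p = 0.00851). Its difference of 4.18 became 4.92 without Arc replicate 1 and 3.44 without Arc replicate 2. Rgs7 and Rgs14, regulators of G protein signalling, were 6.77-fold and 4.54-fold higher. Among kinases of the calmodulin pathway Camk1d was 4.24-fold, Camk2d 2.75-fold and the related Camkv 2.47-fold higher, 3 of 64 genes of the cAMP, cGMP and calmodulin list, with none lower. Calcium-binding proteins went both ways: Hpcal4 (4.55-fold), Kcnip4 (3.26-fold), Nell2 (2.96-fold) and Cabp1 (2.73-fold) were higher, Sncg (4.42-fold) and Necab2 (2.59-fold) lower, of 26 measured. Dkk3, a secreted protein of the Wnt modulator family, was 7.56-fold higher (adjusted p = 0.00402). Ngfr, the low-affinity neurotrophin receptor, was at least 27.1-fold lower (adjusted p = 0.0139, 0.0716 without Arc replicate 1), and its difference of -4.76 became -4.11 without VMH replicate 1.

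Large differences were also found outside these groups. Fam81a read -0.27, 0.02 and -0.18 in VMH, was not well above background in Arc (at least 14.6-fold, adjusted p = 0.0115), and had a DMH mean of -2.89. Alox12, an arachidonate lipoxygenase, was at least 5.91-fold higher, and Trim67, of the tripartite motif family, at least 8.58-fold lower and not well above background in VMH (adjusted p = 0.00438 and 0.00675). Lama1, a laminin chain, was 3.58-fold higher. The synaptic lipase Dagla, which makes an endocannabinoid, was 3.12-fold higher. Of the retinoid carriers, Crabp1 was 13.9-fold lower in VMH and Rbp4, not well above background there, at least 8.48-fold lower, 2 of 11 retinoid genes. Asb4, an imprinted gene, read 4.88 and 4.75 in Arc and 1.58, 1.46 and 1.35 in VMH (10.2-fold lower, adjusted p = 0.00127). Its DMH mean was 4.05. Col2a1, a fibrillar collagen, was 8.67-fold lower (adjusted p = 0.00274). Among the 2665 genes with a mean level of 2.91 or more, 15 were higher and 6 lower. Both shares were below the 0.781% and 0.372% of all genes. The bright calls included Synpo (3.88-fold higher), Mtfp1 (3.86-fold), Icam5 (2.83-fold) and Celf2 (2.68-fold), and, on the lower side, Cited1 (3.57-fold) and Hyi (2.82-fold).

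Some neighbouring transcripts were called together. Of 23 pairs of consecutive called probes closer than 200000 bases on mm9, 21 differed in the same direction. As 208 of the 307 calls were higher, many pairs of any calls share a direction, and the expected number was not computed. The pairs are not all separate loci: the probes of LOC100862557 and Myh7 lie 1 base apart and those of Gng13 and Chtf18 8 bases. The pairs were examined after their values were seen. C130093G08Rik, an unnamed transcript 6820 bases from the Fezf1 probe, exceeded Arc at least 11-fold (adjusted p = 0.000137). Beside Cbln1, Gm2694 was 4.1-fold higher, and 2 probes for intergenic transcripts (chr8:89996710-90049453 and chr8:90048940-90049461) were higher by 3.94 and 3.72 on the log2 scale. The regions and their probes overlap, so they are not independent.

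On the Arc side, AW549542, whose probe lies 114309 bases from that of Tbx3, read 2.49 and 1.63 in Arc and not well above background in VMH (at least 77.7-fold lower, adjusted p = 0.00998). Dlx1os, transcribed beside Dlx1, was at least 38-fold lower, with a difference of -5.97 that became -5.17 without VMH replicate 2 and -6.57 without VMH replicate 3. The probes of Dlx1os and Dlx1 lie 565 bases apart. The Hmx2 and Hmx3 probes lie 11623 bases apart, and both genes were lower. The 2 pairs that differed in opposite directions were Kcna5 and Kcna1, 103092 bases apart, and Faim2 and a probe without a gene name, 97719 bases apart.

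The 250 bases upstream of called genes were searched on both strands for 3 motifs, in RefSeq sequence of assembly GRCm38.p6: AAGGTCA, bound by nuclear receptors of the Nr5a kind, TAATTA, a homeodomain core, and TGACGTCA, the cAMP response element. AAGGTCA stood in 5 of 174 windows (2.87%) of higher genes, 5 of 94 (5.32%) of lower genes and 4.08% of all 32851 windows. TAATTA stood in 4.02%, 7.45% and 4.84%. TGACGTCA stood in 1 of 174 windows of higher genes (0.575%), 3 of 94 of lower genes (3.19%, Sst, Th and Cartpt) and 1.55% of all. A match is a description of the letters only. The 3 windows are shown because these peptide and dopamine genes were lower together, and Pomc because it holds both other motifs, with the matches in capitals.
Sst, chr16:23890845-23891094, minus strand: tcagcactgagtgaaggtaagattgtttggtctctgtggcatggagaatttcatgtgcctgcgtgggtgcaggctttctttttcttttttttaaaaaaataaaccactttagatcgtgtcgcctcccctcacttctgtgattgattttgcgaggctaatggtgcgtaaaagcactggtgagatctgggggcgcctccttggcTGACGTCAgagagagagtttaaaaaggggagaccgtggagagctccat
Th, chr7:142899996-142900245, minus strand: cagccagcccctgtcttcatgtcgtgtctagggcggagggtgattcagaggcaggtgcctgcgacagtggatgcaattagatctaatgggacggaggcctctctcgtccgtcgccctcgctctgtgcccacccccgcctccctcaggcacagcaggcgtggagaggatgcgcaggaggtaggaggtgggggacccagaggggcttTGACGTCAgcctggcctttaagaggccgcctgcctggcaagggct
Cartpt, chr13:99900684-99900933, minus strand: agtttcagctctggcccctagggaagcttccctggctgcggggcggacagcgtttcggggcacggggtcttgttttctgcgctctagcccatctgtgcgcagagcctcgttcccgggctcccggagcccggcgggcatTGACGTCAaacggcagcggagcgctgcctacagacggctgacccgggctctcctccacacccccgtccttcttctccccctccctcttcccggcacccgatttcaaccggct
Pomc, chr12:3954695-3954944, plus strand: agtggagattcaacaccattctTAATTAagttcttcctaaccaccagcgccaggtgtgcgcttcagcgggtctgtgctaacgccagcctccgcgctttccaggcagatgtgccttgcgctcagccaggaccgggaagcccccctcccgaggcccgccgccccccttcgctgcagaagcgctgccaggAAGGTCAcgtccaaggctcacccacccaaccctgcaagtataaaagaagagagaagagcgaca

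Neither housekeeping list held a gene past the threshold. Respiratory chain genes numbered 91, of which 84 had a positive difference, with a median of 0.35. In 60 of them all VMH arrays lay above both Arc arrays, against 4426 of all 26646 tested genes. Of 72 cytosolic ribosomal protein genes, 70 had a negative difference, with a median of -0.28. The median over all genes was -0.03, and in the 267 genes with a level of 6.72 or more it was -0.23. Both medians kept their sign under the other scalings, at 0.31 to 0.35 and -0.30 to -0.25. Cholesterol synthesis genes had a median of 0.48, with 1 of 21 higher and none lower.

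Markers of other cell types were measured beside the neuronal genes. All 14 microglia markers had a negative difference (median -0.60), and their summed signal, in multiples of the 75th percentile, was 162.2 to 191.6 in VMH and 215.4 to 246.5 in Arc, most of it from Itgam. No microglia marker passed the test, C1qb having a difference of -1.22 (SE 0.36, adjusted p = 0.19). Oligodendrocyte markers summed to 31.24 to 50.8 in VMH and 19.05 to 32.56 in Arc and astrocyte markers to 15.8 to 24.18 and 14.82 to 20.65, with overlapping ranges. Of 11 oligodendrocyte and 12 astrocyte markers none passed. Endothelial and mural markers were lower on all VMH arrays, at 6.287 to 6.607 against 7.31 to 8.269, and oligodendrocyte precursor markers higher, at 4.896 to 5.933 against 4.659 to 4.728. No single gene of these 2 lists, of 11 and 7 measured, passed.

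Markers of DMH neurons summed to 12.32 to 12.8 in VMH and 27.07 to 29.4 in Arc, against 68.53 to 77.26 in DMH, and 4 of 11 were lower and 1 higher in VMH. Markers of the paraventricular and suprachiasmatic nuclei and the lateral hypothalamus summed to 7.357 to 10.62 in VMH and 17.68 to 19.49 in Arc. Pituitary markers overlapped, at 2.387 to 3.108 and 2.375 to 2.835, and Gh did not differ beyond its spread (-0.60, SE 0.37). Tanycyte markers overlapped too. The part of other cells in the differences above was not tested.

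**Figure D4:**
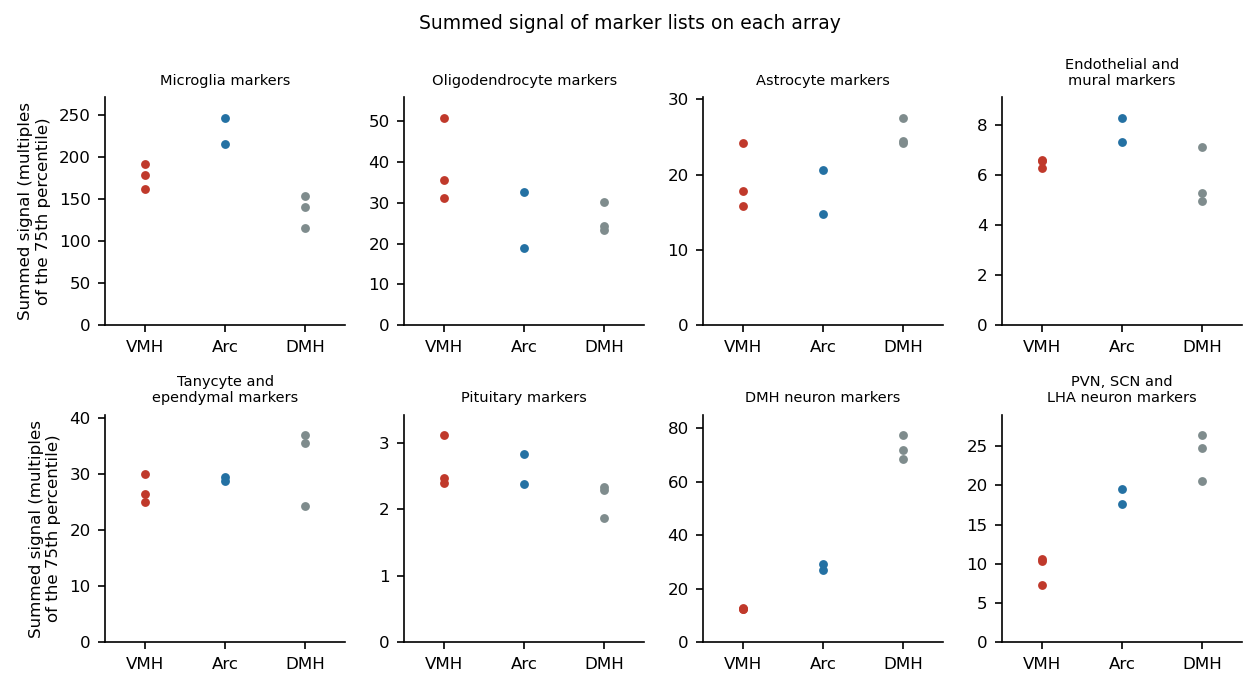
Summed signal of 8 marker lists on each array, in multiples of the 75th percentile of the array (axes from 0), 1 point per array. Microglia, endothelial, DMH and PVN, SCN and LHA marker sums are lower on all VMH arrays than on both Arc arrays, while oligodendrocyte, astrocyte, tanycyte and pituitary sums overlap between VMH and Arc.

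**Figure D5:**
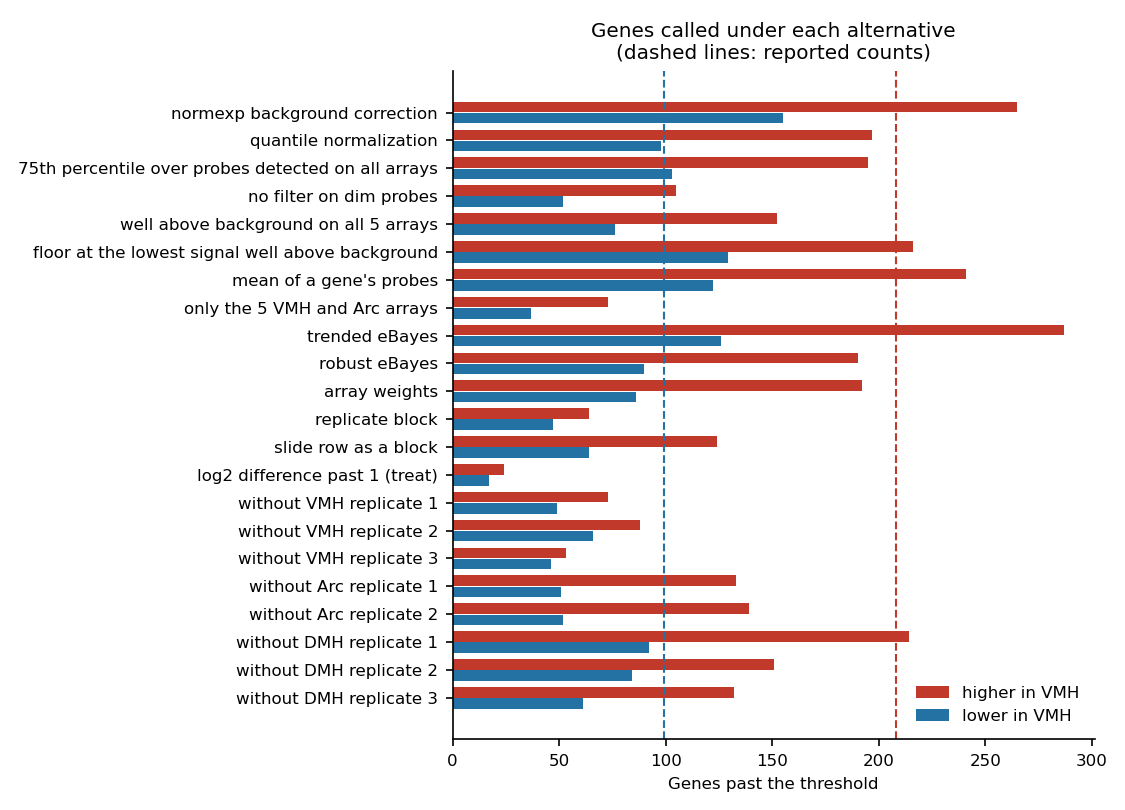
Number of genes past the threshold under each alternative, as red bars for genes higher and blue bars for genes lower in VMH, with dashed lines at the reported 208 and 99. Counts ranged from 24 to 287 for higher and 17 to 155 for lower genes.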

How the data were processed

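Each of the 8 samples is 1 array. The authors' deposited values are spot intensities of the red (Cy5) channel, background-subtracted and detrended with Agilent Feature Extraction 11.5.1.1, per the submitters' processing notes and the file headers; no scaling between arrays had been applied. Flags marking spots well above background, saturated spots and outliers come from the deposited files. The series-wide values were not used, since their columns run in constant steps.

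Log2 of the processed signal of non-control spots (59305 spots, 55681 probes) minus the array's 75th percentile was taken, outlier spots were left out and spots of a probe averaged. Probes well above background on all arrays of VMH or of Arc were kept (39949), and the probe with the highest mean of the 2 nuclei stood for each gene name. Of 26661 genes, 16971 matched a RefSeq symbol (GRCm38.p6), and 4151 of those tested were intergenic. With limma 3.58.1, lmFit estimated 1 mean for every nucleus from the 8 arrays and eBayes moderated the variances (5 residual and 2.89 prior degrees of freedom) in R 4.3.3 with the R package data.table (version 1.17.8), and VMH minus Arc was tested with Benjamini-Hochberg adjustment over all genes at 0.05. The model was tested on simulated data. All arrays lie on 1 slide and 1 scan.

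The genes named are the 20 largest differences in each direction with no overlap, the called members of 48 gene lists (or the 2 with the smallest p), fixed genes, and the 8 calls with the smallest p in each direction among mid-sized and among bright differences; accession-only names were left out. Further list members are given as values, and neighbouring transcripts were chosen after their values were seen. The comparison, members and lists were chosen with earlier results of these data known. Alternatives were other background corrections, scalings, filters, probe summaries, eBayes settings, blocks and a fold threshold, and each array left out in turn. Some items are not reported here.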

Additional observations from a re-analysis of the deposited data

How the results depend on the processing

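With 208 higher and 99 lower genes reported, the higher count was 105 with no filter on dim probes, 73 with only the 5 VMH and Arc arrays, 124 with the slide row as a block and 24 for a log2 difference past 1 (treat). The lower count was 155 with normexp background correction, 52 with no filter, 37 with only the 5 arrays, 64 with the slide row as a block and 17 with treat. With the replicate block 64 genes were higher and 47 lower, and 98 of the 307 calls were kept; Kiss1, Sst, Otp, Dlx1, Htr7, Gad1, Th and Tac1 were among those lost. The deviations of same-numbered arrays from their nucleus mean correlated at 0.087 and 0.079 between VMH and Arc, 0.07 and 0.093 between Arc and DMH and 0.192, 0.149 and 0.106 between VMH and DMH. All were positive. As not all were over 0.1, the numbers were not taken to pair samples, but a pairing stays possible. Each array that had a same-numbered array in another nucleus correlated best with it there, which is a hint from the data, not the design. The deviations of the 2 Arc arrays are equal and opposite, so against Arc this shows only a sign. VMH replicate 1, for example, correlated at 0.087 with Arc replicate 1 and at -0.087 with Arc replicate 2. Leaving out 1 array gave 53 to 214 higher and 46 to 92 lower genes. Under the other alternatives both counts stayed within 1.5 times. None of the 160 genes named by the rule changed sign under any alternative run. Among all 307 calls, 2 changed sign, with the mean of a gene's probes. The signs of further list members given as values, such as Pdyn, Cpe and Esr1, were not checked. The median of the immediate early genes, 0.03, became -0.03 with normexp and -0.003 with quantile normalization. The cause was not tested, other than that treat asks for a larger difference and that fits on fewer arrays have fewer degrees of freedom. Arc rests on 2 arrays, and a probe not detected above background gives only a bound.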
